A study of Mus musculus with 12 samples.

Results

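The regions described here are the 311 strong FoxP3-bound regions that recurred in wild-type Treg cells and were missing among the strong regions of A384T Treg cells. The 6 peak lists, 3 per genotype, were restricted to chromosomes 1 to 19 and from each the 1600 peaks of highest pileup, the number of ChIP fragments stacked over the summit, were kept as its top list. Peaks of different lists that overlapped by 1 bp or more were joined into regions. A region was kept as WT-only when it held a peak from at least 2 of the 3 WT top lists and from none of the A384T top lists. This gave 311 of 3289 joined regions, which is 9.46%. The mirror rule gave 279 A384T-only regions, or 8.48%. The regions were thus chosen by the pileup ranks of these same 6 libraries, so their presence in the top lists is a description and carries no test.

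FoxP3 is the forkhead transcription factor that defines regulatory T (Treg) cells, the CD4+ T cells that restrain immune responses. It binds DNA through its C-terminal forkhead domain and acts mostly at enhancers and promoters that other lymphocyte factors have already opened. Mutations of the forkhead domain cause the human autoimmune syndrome IPEX, and A384T, alanine to threonine, is a substitution of this kind. In ChIP-seq a strong peak can reflect frequent binding, binding in more of the cells, or an easily recovered site.

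The WT group came from mice with wild-type FoxP3 and the A384T group from mice with the A384T allele. Both lines carried hCD2, the marker used for sorting, so the controls carry it too, and the C57BL/6J strain was shared. CD4+ hCD2+ Treg cells were sorted magnetically from lymph nodes and spleen, untreated and freshly isolated, and FoxP3 was precipitated with an in-house rabbit polyclonal antibody. The labels give neither the age of the mice nor whether replicates came from separate animals, and a peak list holds no expression with which to check the sorted cells.

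The libraries held 17520951 to 25386770 unique ChIP tags, and their autosomal lists ranged from 1670 peaks in WT replicate 2 to 20218 in WT replicate 1. The top lists therefore hold 7.91, 95.8 and 42.6% of the WT lists and 9.02, 24.7 and 78.9% of the A384T lists in replicates 1, 2 and 3. The pileup at rank 1600 was 113, 26.39 and 42 in WT and 111, 60.59 and 33 in A384T. Lists of equal length thus reach different heights, and a peak is compared below by its rank in its own list, where 1 is the highest pileup. The replicate 1 libraries stood apart, with the longest lists, 51 bp tags against 49 bp, and 39 and 30% redundant ChIP tags in WT and A384T against 18 to 21% in the others. Pileups in WT replicate 2 and A384T replicate 2 are scaled by the authors' peak caller and need not be whole numbers. No 2 lists were identical.

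Of the 311 WT-only regions, 94 were strong in all 3 WT libraries and 217 in a pair of them. The pairs were replicates 2 and 3 for 109 regions, replicates 1 and 3 for 60 and replicates 1 and 2 for 48. There were 1479 regions strong in 2 or 3 WT libraries, and 21.0% of them were WT-only; among the 851 strong in all 3 it was 11.0%. They belonged to the middle and lower part of the strong lists. Within the top lists their median ranks were 1098, 1035 and 1118 in WT replicates 1, 2 and 3. The 448 regions strong in all 6 libraries had median ranks of 296, 283 and 346 there. Where a full list held a peak, inside or outside its top list, the WT-only medians were 1330, 1037.5 and 1181.5. Even the best WT-only rank was 202, 164 and 189 in the WT lists. The WT fold enrichment over control, a value per peak given by the authors, had medians of 28.6, 10.6 and 12.9.

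Among the 94 regions strong in all 3 WT libraries, the best-ranked by mean rank in the WT top lists lay on chromosome 10 from 12642160 to 12643333. Its pileup was 190, 73.01 and 92 in WT replicates 1, 2 and 3, at ranks 242, 164 and 209. A384T replicate 1 had a peak there with a pileup of 58 at rank 7382, and A384T replicates 2 and 3 had none past the authors' cutoff. All 3 WT libraries were thus near the top of their lists, while the single A384T peak lay lower, at percentile 58.4 of its list.

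Next among these 94 came chromosome 18 from 6764746 to 6765406, which had a peak in all 6 full lists. The WT pileups were 186, 66.85 and 93, at ranks 266, 208 and 205. The A384T pileups were 77, 50.17 and 31, at ranks 4233, 2542 and 1743. Every library called this region, and the 2 genotypes differed in its place in the order.

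The third, on chromosome 16 from 20097425 to 20098472, had WT pileups of 201, 58.93 and 96 at ranks 202, 315 and 189. A384T replicates 1 and 2 had pileups of 99 and 50.17 at ranks 2329 and 2536, and A384T replicate 3 had no peak. The 6 next in order among the 94 had the same layout, with a peak in A384T replicates 1 and 2 below rank 1600 and none in replicate 3. They lay on chromosome 3 (152376789 to 152377137), chromosome 9 (21171836 to 21172451), chromosome 18 (56606710 to 56607187), chromosome 6 (39369868 to 39370509), chromosome 11 (63798100 to 63798832) and chromosome 8 (14961357 to 14961898). Among the 10 best-ranked of the 94 together, WT replicate 1 ranks ran from 202 to 738, and the 9 ranks found in A384T replicate 1 from 1981 to 7382. In replicate 2 the WT ranks ran from 164 to 540 and the 8 A384T ranks from 1670 to 3506.

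Among regions strong in only 2 WT libraries, ranked by the mean over those 2, the best was chromosome 7 from 86417727 to 86418157. Its pileups were 182 and 60.69 in WT replicates 1 and 2, and WT replicate 3 had no peak there at all. A384T replicates 1 and 2 had pileups of 89 and 38.81, at ranks 2997 and 4179. A WT library can thus lack a peak at a region that ranked 285 and 274 in the other 2 WT lists. The next 4 lay on chromosome 7 (36019488 to 36019996 and 82927491 to 82927712) and on chromosome 17 (17258146 to 17258582 and 17315840 to 17316485). All 5 had a peak in A384T replicate 1, 4 had one in A384T replicate 2 and 0 in A384T replicate 3.

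**Figure D1:**
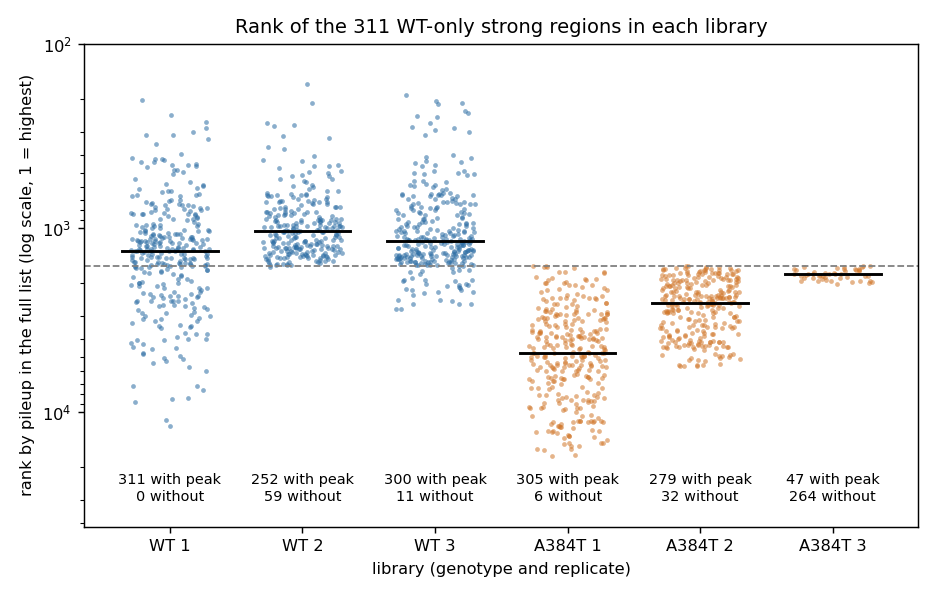
Each point is a WT-only region, placed by its rank by pileup in the full list of each library (log axis, higher on the page is stronger). Black bars are medians, the dashed line is rank 1600, and the numbers below count regions with and without a peak. The A384T points lie below the line by the rule, and their medians are 4780, 2541 and 1788.

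Almost all WT-only regions had a peak in A384T cells once the full lists were searched. At least 1 full A384T list held 309 of the 311 regions (99.4%, exact Clopper-Pearson 95% interval 97.7 to 99.9%), and at least 2 lists held 275 (88.4%, 84.3 to 91.8%). Intervals here cover counting error only. The same lookup found 99.4% of all 3289 joined regions, but a region with a peak in an A384T top list is found by construction. The 497 regions strong in a single WT library only could be missed as WT-only regions could, and 96.2% of them were found. By library, A384T replicate 1 held 305 of the WT-only regions (98.1%, against 93.6% of the 497). A384T replicate 2 held 279 (89.7% against 82.3%) and A384T replicate 3 held 47 (15.1% against 7.85%). Over all joined regions the shares were 98.7, 91.0 and 53.5%, with the same built-in hits. The A384T replicate 3 list was short, and 1600 of its 2028 peaks were barred to the WT-only regions by the rule.

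The peaks found in the full A384T lists lay below rank 1600 by the rule. In A384T replicate 1 the median rank was 4780 (quartiles 3142 and 7754, range 1606 to 17342), with a median pileup of 72 and a median fold enrichment of 17.5. In A384T replicate 2 the median rank was 2541 (quartiles 2043.5 and 3638.5, range 1606 to 5652), with a median pileup of 50.17. In A384T replicate 3 all 47 ranks fell between 1602 and 2017, close to the end of the list. Within rank 3200 there were 79 of the 311 regions in A384T replicate 1 and 186 in A384T replicate 2.

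How far down the A384T peaks lay differed with the WT libraries that had chosen the region. The 109 regions chosen through WT replicates 2 and 3 had a median rank of 8343 in A384T replicate 1, where the 94 regions strong in all 3 WT libraries had 4023, the 60 chosen through replicates 1 and 3 had 3346 and the 48 chosen through replicates 1 and 2 had 3668. In WT replicate 1 these same 109 regions had a median rank of 2618, where the other classes had 913.5, 1113.5 and 1194.5. The order of the A384T replicate 2 medians was narrower, from 2431 for the 94 regions to 2850.5 for the 60. A384T replicate 2 lacked a peak more often at the 60 regions without WT replicate 2, with a peak in 73.3% of them against 90.4 to 95.8% in the other classes.

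Searching the A384T lists step by step showed how much of the class depended on the length of the lists. With the WT side kept, 199 of the 311 regions had no peak among the 2000 strongest of any A384T list, 152 among the 2400 strongest and 94 (30.2%) among the 3200 strongest. At 4800 peaks 35 remained, at 6400 peaks 14, and in the full lists 2. For the 279 A384T-only regions, searched in the WT lists, 122 (43.7%) remained at 3200 peaks and 18 in the full lists. The 2 series are not on one scale, since only A384T replicate 1 and A384T replicate 2 reach beyond 3200 peaks on one side and WT replicate 1 and WT replicate 3 on the other.

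**Figure D2:**
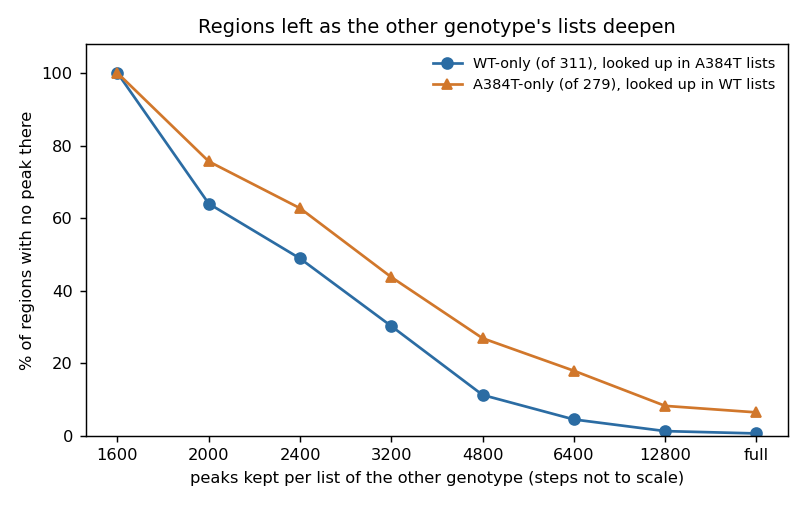
The percentage of WT-only (circles) and A384T-only (triangles) regions that had no peak in any list of the other genotype is plotted against the number of peaks kept per list of that genotype. WT-only falls from 100 to 30.2% at 3200 peaks and 0.643% in full lists, and A384T-only to 43.7 and 6.45%.

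The 2 regions without any A384T peak differed in their support. Chromosome 3 from 152604698 to 152605024 was strong in all 3 WT libraries, with pileups of 143, 51.9 and 78 at ranks 738, 427 and 313, and with fold enrichments of 44.9, 10.6 and 31.2. Its nearest strong A384T peak lay 544836 bp away. Chromosome 2 from 167665072 to 167665338 had pileups of 125 and 33.42 in WT replicates 1 and 2, at ranks 1154 and 1245, and no peak in WT replicate 3. The second region was thus called in fewer WT libraries, and its absence from A384T is matched by an absence from 1 WT library. A missing peak means that no signal passed the authors' q-value cutoff of 1e-10, not that FoxP3 was absent.

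At the edge of the rule 1 rank in a single library decided membership. The member closest to exclusion, chromosome 7 from 109486420 to 109486912, had A384T ranks of 1925, 1805 and 1602 and WT ranks of 1359, 1162 and 1786. A region just outside, chromosome 7 from 75428651 to 75429201, had A384T ranks of 3160, 2489 and 1600 and WT ranks of 802, 957 and 918. The second region was stronger in every WT list and weaker in 2 of the 3 A384T lists than the first, and it was left out through A384T replicate 3 alone. The other 4 members nearest to the A384T limit had best A384T ranks between 1606 and 1612. On the WT side, chromosome 9 from 123663500 to 123664003 was kept at ranks 1599 and 1515 in WT replicates 1 and 2, while chromosome 9 from 114349627 to 114350093 was left out at ranks 1546 and 1601 in the same libraries.

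Replicate 1 gave a view of the order that its own top lists did not choose. The 109 regions selected through WT replicates 2 and 3 lay outside the top lists of both WT replicate 1 and A384T replicate 1, so the same condition held for both libraries of that pair. Both full lists had a peak at 105 of them, and WT replicate 1 alone had one at the other 4. The median rank of the 105 was 2552 in WT replicate 1 (quartiles 2019 and 3786) and 8343 in A384T replicate 1 (5390 and 11644), and the median pileups were 94 and 54. WT replicate 1 ranked 103 of the 105 better (98.1%). The same was true of 75.5% of the 957 joined regions outside both top lists with a peak in both full lists, and of 52.4% of 11284 overlapping peaks outside both. By percentile of the list instead of rank the count was 104. Of the A384T-only regions outside both top lists, 50 had both peaks, and WT replicate 1 ranked 8 of these better. Each genotype has a single library here, so the difference has no replicate check.

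**Figure D3:**
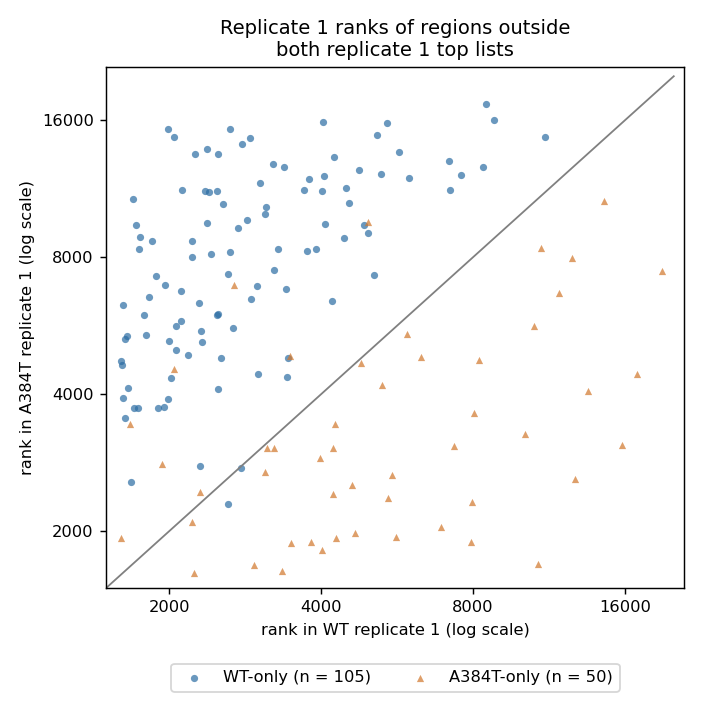
Ranks in WT replicate 1 (horizontal) and A384T replicate 1 (vertical), both on log axes, for regions outside both replicate 1 top lists. The line marks equal ranks. Of 105 WT-only regions (circles) 103 lie above it, ranked better in WT, and of 50 A384T-only regions (triangles) 8 do.

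Replicates 2 and 3 allowed less. Of the 48 regions selected through WT replicates 1 and 2, 33 had a peak in the full list of WT replicate 3 and none in A384T replicate 3, 1 had the reverse, 4 had both and 10 neither. Among all 1107 joined regions outside both replicate 3 top lists the corresponding counts were 340 and 48, with 54 in both, and the WT list was the longer (3753 against 2028 peaks). In the 4 regions with both peaks A384T replicate 3 had the better rank, as it did in 46 of those 54 joined regions, but by percentile of the list WT replicate 3 was better in all 4 and in 51 of the 54. The direction in replicate 3 thus depended on whether list length was taken into account. For the 60 regions selected through WT replicates 1 and 3 no comparison was possible, since the WT replicate 2 list ends at 1670 peaks: 43 had a peak in A384T replicate 2 alone, 1 in both and 16 in neither.

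The selection was also made with 2 same-numbered pairs of libraries and looked up in the top lists of the pair left out. Each rotation leaves out 1 library per genotype, so its intervals cover counting error and not variation between libraries. Without replicate 1, 212 regions were strong in both remaining WT libraries and in neither remaining A384T library. Of these, 102 (48.1%, exact interval 41.2 to 55.1%) were strong in WT replicate 1 and 7 (3.30%, 1.34 to 6.68%) in A384T replicate 1. The background, over all joined regions of the other 4 lists, was 52.7% for WT replicate 1 and 41.5% for A384T replicate 1. The WT share was thus close to its background and the A384T share far below.

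Without replicate 2, 158 of 228 chosen regions (69.3%, 62.9 to 75.2%) were strong in WT replicate 2, against a background of 43.7%. A384T replicate 2 held 74 of them (32.5%, 26.4 to 39.0%), against 49.8%. Without replicate 3, WT replicate 3 held 114 of 165 (69.1%, 61.4 to 76.0%, background 46.9%) and A384T replicate 3 held 23 (13.9%, 9.05 to 20.2%, background 47.2%). In all 3 rotations the WT library left out held more of the chosen regions than the A384T library, by 44.8, 36.8 and 55.2 percentage points, with a mean of 45.6 ± 9.18 (SD, n = 3 rotations that share libraries). With lists ranked by fold enrichment instead of pileup the mean was 27.8 points. The mirror choice gave 51.1 ± 14.9 points in the other direction. A384T replicate 2 recovered the most of the WT-only choice and WT replicate 1 the most of the A384T-only choice, with 113 of 273 (41.4%, background 52.7%).

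**Figure D4:**
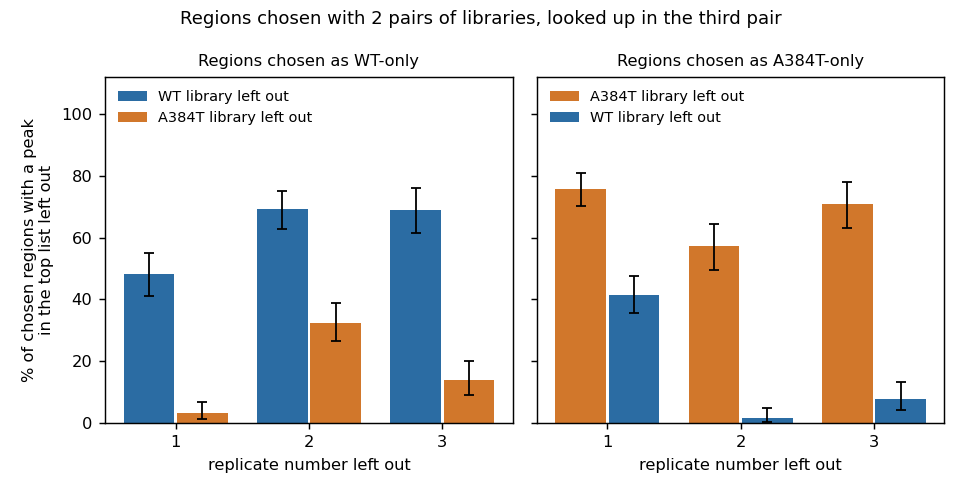
Bars give the percentage of regions chosen with 2 pairs of libraries that had a peak in the top list of each library of the pair left out, with exact 95% intervals. In the WT-only choice (left) the WT bars are 48.1, 69.3 and 69.1% and the A384T bars 3.30, 32.5 and 13.9%, and in the A384T-only choice (right) the order of the genotypes is the opposite.

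The peaks of both genotypes had nearby summits within these regions. At the 305 regions with a peak in both replicate 1 lists the summits lay a median of 22 bp apart, and 83.3% were within 50 bp. The WT replicate 1 and WT replicate 3 summits were a median of 21 bp apart at 300 regions (80.3% within 50 bp). Over all joined regions the 2 replicate 1 summits were 16 bp apart (86.6% within 50 bp). Other pairs of libraries gave 23 bp between WT replicates 2 and 3 (83.0% within 50 bp), 27 bp between WT replicate 1 and A384T replicate 2 (75.3%) and 28 bp between WT replicate 3 and A384T replicate 2 (75.1%). Over all joined regions WT replicates 1 and 3 were 22 bp apart and WT replicates 2 and 3 were 19 bp apart. A384T replicate 2 lay 21 bp from WT replicate 1 and 21 bp from WT replicate 3 there. At the WT-only regions the replicate 1 libraries thus lay as close across genotypes as WT libraries did to each other. The pairs with A384T replicate 2 were somewhat further apart. Beside its own median over all joined regions, every pair except WT replicates 1 and 3 was wider at the WT-only regions.

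Joined WT-only regions were 153 to 1539 bp wide, and A384T-only regions 181 to 1895 bp. At the 305 regions the WT replicate 1 peaks had a median width of 496 bp and the A384T replicate 1 peaks 346 bp, beside median pileups of 120 and 72. At the 236 regions with a peak in both replicate 2 lists the order was the opposite, with a median width of 170.5 bp in WT and 249.5 bp in A384T and median pileups of 36.94 and 50.17, in lists whose pileup at rank 1600 was also lower in WT (26.39 against 60.59). A higher peak crosses the cutoff over a longer stretch, so width is not independent of rank. The control background implied by pileup and fold was alike in both libraries, with medians of 2.94 control fragments in WT replicate 1 and 3.05 in A384T replicate 1, and it was higher in A384T at 152 of the 305 (49.8%). At the 260 A384T-only regions with both peaks these medians were 5.30 and 4.58, so the 2 classes differed in the background they were called against. Its part in the ranks was not tested.

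WT-only regions were found on all 19 autosomes, from 8 on chromosome 13 to 29 on chromosome 11. They made up 5.71% of the joined regions on chromosome 13 and 14.9% on chromosome 19, which had 18 of 121. Many lay near one another: 97 of the 311 (31.2%) had another WT-only region within 100 kb, in 42 groups, and 28 had one within 10 kb. This spacing was like that of other strong regions, with 28.8% for the 448 regions strong in all 6 libraries and 29.8% for the 497 strong in a single WT library only. The A384T-only regions lay further apart, with 21 of 279 (7.53%) in groups. WT-only regions also lay nearer to strong binding of the other genotype. Their median distance to the nearest strong A384T peak was 44.7 kb, with 60 (19.3%) within 5 kb, where the A384T-only regions had a median of 190 kb to the nearest strong WT peak and 22 (7.89%) within 5 kb. These distances are a description of the chosen sets and were not tested.

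The group with the most members spanned 130 kb of chromosome 19, from 11445599 to 11575668, and held 6 WT-only regions among 24 strong regions. The other 18 included 14 that were strong in at least 1 A384T library and 0 that met the A384T-only rule, which 8.48% of all joined regions met. All 24 had a peak in the top list of WT replicate 2, and 14 were strong in all 3 WT libraries. In A384T replicates 1, 2 and 3 the top lists held 1, 14 and 12 of the 24.

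The 6 members had lower median pileups than the other regions of this stretch in WT as well. The medians were 115.5, 38.26 and 49.5 in WT replicates 1, 2 and 3, where the other 18 regions had 135.5, 52.335 and 65.5. In A384T replicates 1 and 2 the members had 49.5 and 54.91 and the others 75 and 74.79, and in A384T replicate 3 no member had a peak while 12 of the others had one. The replicate 1 median pileups were thus lower in A384T for members and other regions alike, and the replicate 2 median pileups were higher. Pileups of different libraries share no scale, so this does not show stronger binding in A384T replicate 2. By rank, the replicate 2 medians of the members were 1016 in WT and 2074.5 in A384T. Those of the other 18 regions were 440 in WT and 941.5 in A384T. The rule itself kept the members out of the A384T top lists. Of the 22 regions with both replicate 1 peaks WT replicate 1 ranked all 22 better, and in replicate 3 it was 11 of 12. The replicate 1 top lists held 15 of the 24 in WT and 1 in A384T, and a region in only the first ranks better in WT by definition. WT replicate 1 also ranked 75.5% of joined regions outside both replicate 1 top lists better. The stretch was chosen for its WT-only regions, so these counts are a description. In replicate 2 all 24 regions had both peaks, and WT replicate 2 ranked 22 of them better. All 24 lay in the WT top list, of a list that ends at rank 1670, and 14 lay in the A384T top list. A region in only the WT top list again ranks better in WT by definition. The regions ranked better in A384T replicate 2 started at 11509396 (rank 344 against 478) and 11565736 (249 against 372).

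At single members the libraries varied. The member from 11470326 to 11470618 had WT pileups of 54, 36.06 and 46 and A384T pileups of 25 and 52.07 in replicates 1 and 2, with A384T rank 17342 in replicate 1 and rank 2340 in replicate 2. The member from 11575070 to 11575668 had WT pileups of 141, 43.98 and 63, at ranks 792, 718 and 588, and A384T ranks of 6635 and 1842. Both were low in A384T replicate 1 and closer to rank 1600 in A384T replicate 2.

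**Figure D5:**
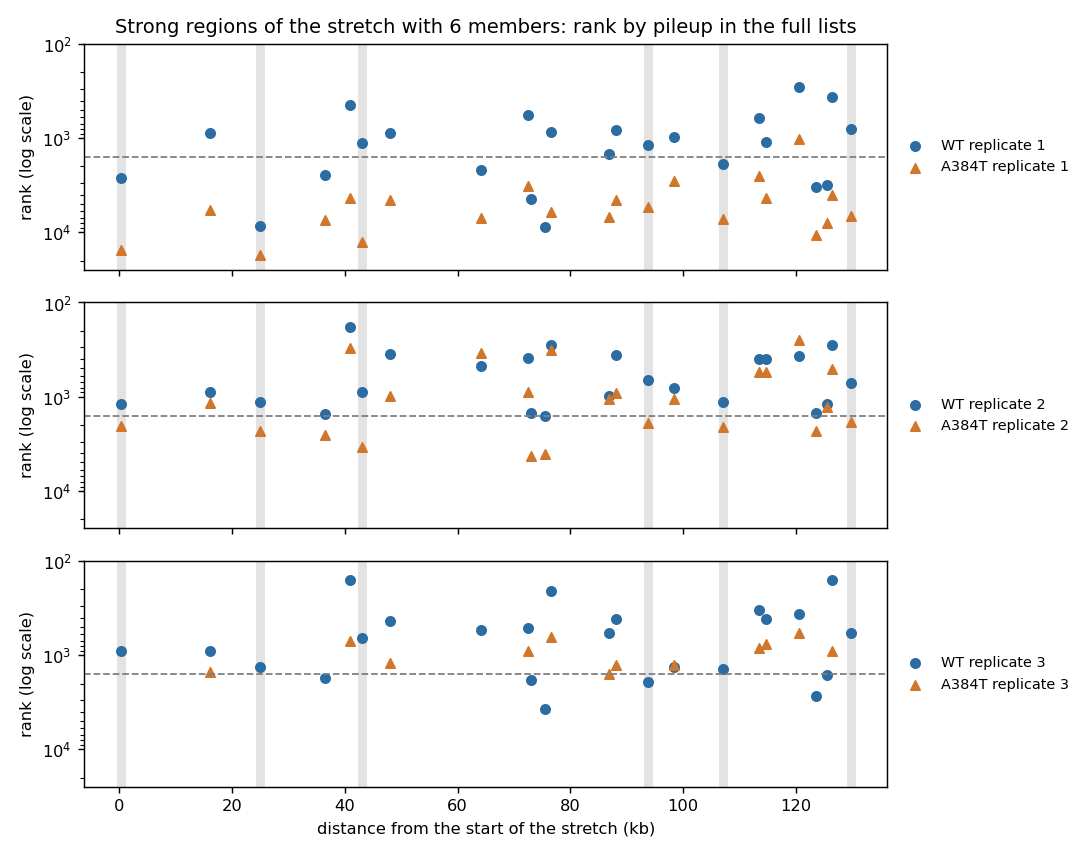
Ranks of the 24 strong regions along the 130 kb stretch of chromosome 19, by distance from its start, with 1 panel per replicate number (log axis, higher on the page is stronger). Circles are WT and triangles A384T, grey bars mark the 6 WT-only regions, the dashed line is rank 1600, and a missing symbol is a missing peak. Triangles lie below circles at all 22 regions of replicate 1 with both peaks, in a stretch chosen for its WT-only regions.

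The second group lay on chromosome 9 from 32311580 to 32346065, over 34.5 kb. All 5 strong regions there were WT-only, and A384T replicate 3 had 0 peaks in the span. WT ranks ran from 832 to 3910 in replicate 1 and from 915 to 1263 in replicate 2, and A384T ranks from 3664 to 8329 and from 1879 to 3364. Both genotypes called all 5 regions in replicates 1 and 2, and the ranks of the genotypes overlapped in replicate 1 and not in replicate 2, where the rule itself kept them apart.

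The next size was 3 members, shared by 6 groups. The first of them along the genome was on chromosome 1 from 140040976 to 140059733, with 5 strong regions in 18.8 kb. Its members had WT ranks of 755 to 4068, 768 to 1446 and 834 to 1567 in replicates 1, 2 and 3, and A384T ranks of 5068 to 9485 in replicate 1 and 2084 to 2767 in replicate 2. A384T replicate 3 had a peak at 1 of the 3, at rank 1750. The other tied groups were on chromosomes 8, 11, 12, 15 and 19. None of the 8 groups with 3 or more members contained an A384T-only region, a class that made up 8.48% of all joined regions. Each group held 3 to 24 strong regions, and its members could not be A384T-only, so few regions could have been.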

How the data were processed

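FoxP3 ChIP-seq peak lists of 3 WT and 3 A384T libraries were used, grouped by sample title; the input libraries entered only as the authors' controls. Bowtie2, MACS2 and the genome build mm9 are named per the submitters' processing notes, and all positions are mm9. Per the file headers, peaks were called per library with MACS 2.1.0.20140616 against 1 control library at a q-value cutoff of 1e-10, keeping 1 tag per position and scaling the larger set towards the smaller. The deposited pileup is a signal value, the deposited fold enrichment a ratio over local control, and deposited -log10 p- and q-values accompany each peak.

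Here, the 1600 peaks of highest pileup were taken from each list (ties by chromosome and start), joined at 1 bp overlap, and full lists searched for any overlapping peak, taking the best-ranked. The control background was (pileup + 1) / fold - 1; with it a Poisson tail gave the deposited -log10 p within 0.1 for 99.7 to 100% of peaks per library. Because the rule used the contrast and lists share no scale, no test was run; shares have exact intervals. Members, lists and alternatives were chosen with earlier results of these data known. Named regions were the 10 best mean ranks among those in 3 WT lists, the 5 best among those in 2, those without any A384T peak, the 5 nearest to each edge, and the 3 largest groups within 100 kb; examples within these, and the regions just outside the rule, were chosen after their values were seen. Depth was 17520951 to 25386770 unique tags. Alternatives are given in the closing section. No mm9 genome or gene annotation was used here, so sequences, motifs and genes, planned as region properties, were not analysed. The joining and lookup were tested on simulated lists. Python 3.11.15, numpy 2.4.6, pandas 2.3.3, scipy 1.17.1 and matplotlib 3.10.9 were used.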

Additional observations from a re-analysis of the deposited data

Results flagged for a closer look

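Chromosome X, which the comparison above leaves out, also held regions of this kind. With chromosome X included in the lists before the top 1600 were taken, 9 WT-only regions lay there among 39 joined regions (23.1%), beside 4 A384T-only regions and 2 strong in all 6 libraries. All 9 had a peak in a full A384T list. The region from 133150496 to 133150902, chosen after its values were seen, had WT pileups of 156, 42.22 and 46, by replicate number. Its A384T peaks reached 50 in replicate 1 and 38.81 in replicate 2, and replicate 3 had none. The sex of the mice is not in the labels, and its part in these counts was not tested.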

How the results depend on the processing

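Of 57 alternative values for 4 results, 39 stayed within 1.5 times the count or within the error and 18 moved; no difference changed sign. The 311 WT-only regions became 205 with lists of 1000 peaks and 120 with 500, and the 279 A384T-only regions became 111 with 500. The number of joined regions was not kept for the alternative settings. Their counts, here and below, thus have no share to set beside the 9.46 and 8.48% of the main lists. With the other genotype's lists deepened, added after seeing the data, the counts were 94 and 122 at 3200 peaks and 2 and 18 in full. Leaving out each library in turn gave 142 to 447 WT-only and 143 to 456 A384T-only regions; the WT-only count was 205, 154 and 142 without WT replicates 1, 2 and 3, where 2 of 2 libraries are then required, and the A384T-only count was 160, 177 and 143 without A384T replicates 1, 2 and 3 and 456 without WT replicate 1. The share of 99.4% with a peak in a full A384T list ran from 89.2% (without A384T replicate 1) to 99.5%, and was 97.0% with lists ranked by fold enrichment. The mean advantage of 45.6 points in the libraries left out was 56.1 with lists of 1000 peaks and 27.8 with lists ranked by fold enrichment; the cause was not tested. With the replicate block, where a WT peak without a same-numbered A384T peak was required in at least 2 pairs, the counts were 414 and 403 and the share 99.5%. The labels do not say that a number marks a shared batch or animal. The top lists of same-numbered libraries shared 41.3, 45.5 and 44.1% of their combined regions. Each WT list shared the most with A384T replicate 2, while A384T replicate 1 shared more with WT replicate 1 than with WT replicates 2 and 3 (22.2 and 26.4%). At -log10 q of at least 20, WT replicate 2 and A384T replicate 3 held fewer than 1600 peaks. Depth limits absence: a region without a peak was not detectable past the cutoff.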
